A study of Mus musculus with 23 samples.

Results

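The comparison asked what loss of Slc11a2 in Cx3cr1-expressing cells did to gene expression in hippocampal CD11b+ cells when no amyloid model was present. Its members were 11 of the 23 libraries in the series, 5 labelled as knockdown without the APP/PS1 transgenes (Slc11a2KD WT, libraries 0001, 0002, 0003, 0019 and 0022) and 6 labelled as control without them (Control WT, libraries 0006, 0008, 0009, 0012, 0014 and 0015). The libraries were grouped by the genotype and treatment written in their labels, not by a measured value. Earlier results of these data were known when the comparison was chosen. All of the mice carried Slc11a2 fl/fl and a single copy of Cx3cr1 Cre-ERT2 on a mixed 129S and C57BL/6J background, and all were female. Slc11a2KD mice had 4 mg of tamoxifen by gavage each day for 5 days at 5 to 6 months of age, and Control mice had corn oil. By the labels cells were taken at 15 to 18 months of age, and the study's text gives a slightly narrower range. WT here means littermates that lacked the APP/PS1 transgenes, an Alzheimer's disease model in which amyloid plaques form. Every knockdown library came from a mouse given tamoxifen and no control library did, so that the drug and the deletion cannot be told apart. Cre under the Cx3cr1 promoter acts in microglia and in other macrophages, and the tamoxifen-inducible form keeps it inactive until the drug is given.

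Slc11a2 encodes divalent metal transporter 1 (DMT1), which moves ferrous iron and other divalent metals across membranes with protons. In most cells it acts in endosomes, where it passes on the iron that the transferrin receptor (Tfrc) has brought in. Iron then goes to ferritin (Fth1 and Ftl1) for storage or leaves through ferroportin (Slc40a1), and the iron regulatory proteins (Aco1 and Ireb2) set the levels of several of these transcripts. Microglia are the resident macrophages of the brain. The choroid plexus, which lies beside the hippocampus, makes transthyretin (Ttr) in large amounts, and its RNA can be carried into a preparation of hippocampal cells.

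Slc11a2 (ENSMUSG00000023030) lies at chr15:100285776-100322953 on the minus strand of GRCm39. The study tested the knockdown by a PCR across exons 6 to 8. It also reported that expression between these exons was lost in the sequenced knockdown microglia, from read coverage that the deposited counts do not hold. Exons 6 to 8 hold 246 of the 3025 bp of exon sequence in the canonical transcript, or 8.13%. They hold 82 whole codons, coding positions 430 to 675. The sequences of these exons are shown because the deletion is read there, whereas the deposited count adds the reads of all exons. Capitals mark the exon and lower case marks 10 bases of intron on each side, 5′ to 3′ on the minus strand, read from GRCm39.

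Exon 6, chr15:100304161-100304267: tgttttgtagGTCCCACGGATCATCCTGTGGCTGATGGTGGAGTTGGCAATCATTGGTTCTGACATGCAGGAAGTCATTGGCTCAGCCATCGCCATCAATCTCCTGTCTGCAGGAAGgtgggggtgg
Exon 7, chr15:100303625-100303695: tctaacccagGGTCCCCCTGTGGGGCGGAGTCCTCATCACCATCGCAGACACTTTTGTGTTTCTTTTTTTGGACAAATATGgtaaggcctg
Exon 8, chr15:100303457-100303524: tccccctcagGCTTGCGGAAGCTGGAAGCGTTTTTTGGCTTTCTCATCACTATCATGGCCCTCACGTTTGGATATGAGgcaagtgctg

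The gene total of Slc11a2 did not separate the groups. In CPM, the counts of a gene per 1000000 counts of its library after TMM scaling, it was 37.5, 31.6, 27.1, 36.9 and 38.1 in Slc11a2KD WT libraries 0001, 0002, 0003, 0019 and 0022. It was 38.6, 29.9, 33.2, 31.4, 43.7 and 33.8 CPM in Control WT libraries 0006, 0008, 0009, 0012, 0014 and 0015. The lowest library was a knockdown and the highest a control, and the other libraries were mixed. The log2 fold change, knockdown minus control, was -0.04 with a standard error of 0.14 (edgeR, adjusted p = 1), and its 95% interval ran from 0.794 to 1.198 as a fold. Even loss of every read over exons 6 to 8 would move this total by -0.12 on the log2 scale if reads were spread evenly, which is less than the standard error. The count therefore does not measure the deletion.

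Libraries held between 31128643 and 46297207 counts. The 9 markers of microglia, among them P2ry12, Csf1r and Tmem119, were all present and summed to between 37690 and 42810 CPM in Slc11a2KD WT and between 37040 and 42320 CPM in Control WT. The choroid plexus signal differed between libraries of the same group. Ttr was 29.5, 0.335, 1.08, 417 and 321 CPM in Slc11a2KD WT 0001, 0002, 0003, 0019 and 0022. In Control WT it was 996 CPM in 0012, 616 CPM in 0015 and 0 in 0006, 0008, 0009 and 0014, where a count of 0 allows up to 3 counts, or at most 0.0921 CPM in any of the 11 libraries. So 4 libraries, a pair from each group, held nearly all of it, and knockdown 0001 held a little.

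The 18 choroid plexus markers, which include Enpp2, Igfbp2 and the anti-aging hormone gene Kl, moved with Ttr. Their sum was 54.1, 11.4, 13.4, 855 and 460 CPM in the knockdown libraries and 9.75, 4.45, 4.20, 2105, 5.71 and 1082 CPM in the control libraries, in the order above. The first principal component of the 500 most variable genes, with 37.6% of the variance among the 11 libraries, was above 0 in 0012, 0015, 0019 and 0022 alone, and 17 of the 18 choroid genes were among those 500. The second component held 10.4%. In bulk libraries fewer cells of a type and less RNA per cell cannot be told apart. Ttr had a log2 fold change of -0.81, smaller than its standard error of 1.74. All 18 choroid markers had a fitted log2 fold change below 0, with a median of -0.93, whereas the mean of their log2 CPM was higher in knockdowns, by 0.18, so that the direction depended on the measure. It depended on single libraries too, since the median was 0.41 without control 0012 and -2.71 without knockdown 0019, and Ttr was 0.32 and -1.63. Without the 4 libraries the remaining controls were all at 0 and all remaining Ttr was in the knockdown group.

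**Figure D1:**
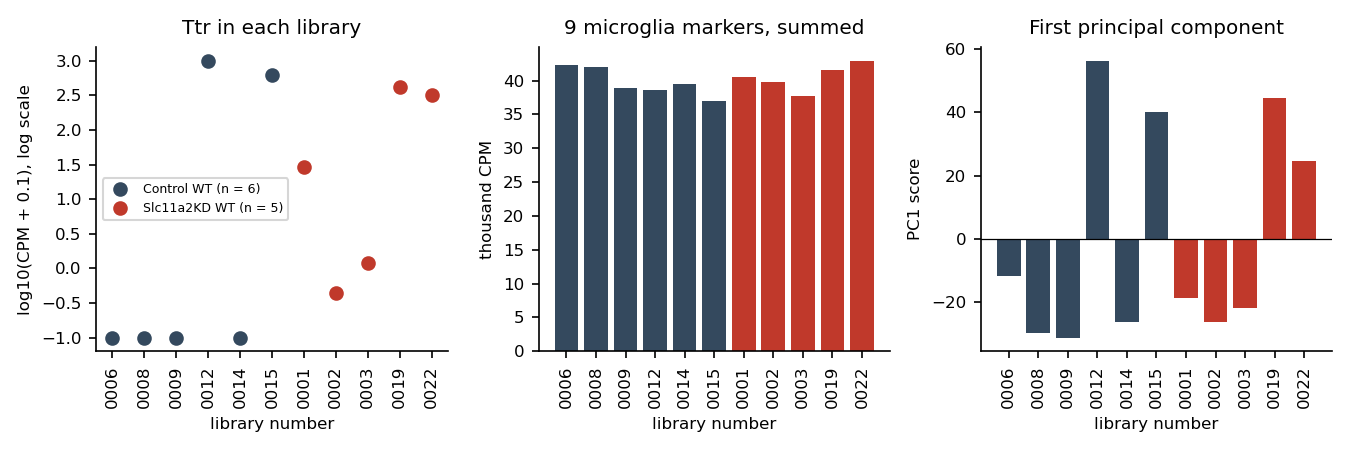
Left, Ttr in each of the 11 WT libraries as log10(CPM + 0.1), where points at -1 are libraries with a count of 0. Middle, the summed CPM of 9 microglia markers. Right, the score on the first principal component. Dark bars and points are Control WT and red ones Slc11a2KD WT. Libraries 0012 and 0015 (control) and 0019 and 0022 (knockdown) stand high in Ttr and above 0 on the component, while the microglia markers lie between 37040 and 42810 CPM in every library.

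Across the 18759 genes tested, 0 passed an adjusted p of 0.05 in edgeR, a background of 0%, and the smallest adjusted p was 0.715. At an unadjusted p under 0.05 there were 1110 genes, 5.92% of those tested, 574 of them (3.06%) higher and 536 (2.86%) lower in Slc11a2KD WT. Among the 11944 genes averaging 1 CPM or more in the 11 libraries the number was 250, or 2.09%. DESeq2 on the same samples called 10 genes, 0.0535% of the 18688 to which it gave an adjusted p, and limma voom with sample quality weights called 1. The median log2 fold change over all genes was 0.01.

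How large a change these libraries leave possible depended on the level of the gene. Over all genes the median half-width of the 95% interval of the log2 fold change was 0.77. It was 3.91 for genes under 0.1 CPM, 2.94 from 0.1 to 1 CPM, 0.82 from 1 to 10 CPM, 0.37 from 10 to 100 CPM and 0.28 at 100 CPM and over. The interval lay wholly within 1 log2 unit of 0, a change under 2-fold in either direction, for 9314 genes, 49.7% of those tested. By level this was 0.127% from 0.1 to 1 CPM, 43.3% from 1 to 10 CPM, 95.8% from 10 to 100 CPM and 97.5% at 100 CPM and over. A tighter limit of 1.5-fold held for 6040 genes, among them 85.3% of those at 100 CPM and over. For 126 genes the fit gave no interval. In genes at 10 CPM and over a change beyond 2-fold was therefore seldom compatible with the data, while under 1 CPM the intervals were wide.

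**Figure D2:**
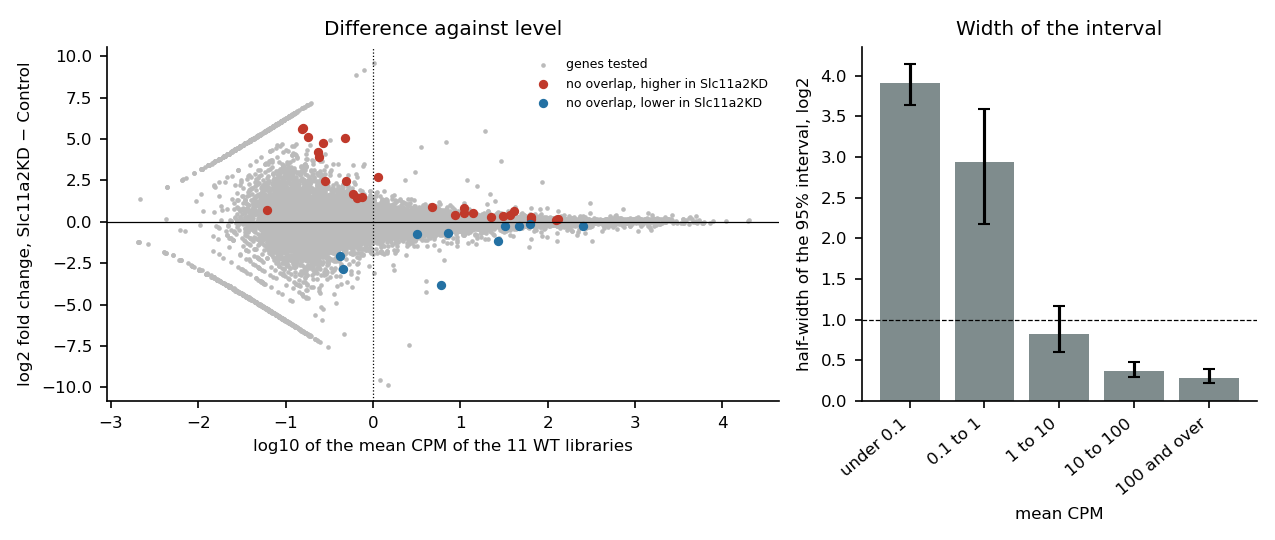
Left, the log2 fold change of each gene tested, knockdown minus control, against log10 of its mean CPM over the 11 libraries, with the 37 genes whose groups do not overlap in red (higher) and blue (lower). The dotted vertical line is at 1 CPM. Right, the median half-width of the 95% interval of the log2 fold change by mean CPM, with lines from the lower to the upper quartile of genes. The half-width falls from 3.91 under 0.1 CPM to 0.28 at 100 CPM and over.

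In 37 genes, 0.197% of those tested, every library of one group lay beyond every library of the other, 27 of them higher and 10 lower in Slc11a2KD WT. With a mean of at least 1 CPM they were 22, or 0.184% of 11944, 14 higher and 8 lower. These genes were picked for the separation, so their p-values support nothing further. Their unadjusted p in edgeR ran from 0.00113 to 0.178 and every adjusted p was 0.715 or more. The separations were narrow. In 20 of the 22 the nearest libraries of the 2 groups differed by less than 1.1-fold, and only 3 genes had a log2 fold change beyond 1 in size.

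Of the 8 lower genes, AI506816, a long non-coding RNA gene at chr5:23903290-23917684, differed most. It was 0.452, 0.622, 0.970, 1.195 and 0.380 CPM in the knockdown libraries against 10.7, 8.91, 15.96, 16.7, 8.54 and 1.24 CPM in the controls. Control 0015, high in Ttr, was the nearest library to the knockdowns, and the other controls were far above them. The log2 fold change was -3.83 with a standard error of 1.05. The same gene ran from 0.231 to 12.97 CPM among Control APP/PS1 libraries and from 0.282 to 14.7 CPM among Slc11a2KD APP/PS1 libraries, so both low and high libraries occurred in each of those groups. The mice were of mixed strain background, and strain alleles at this locus were not analysed here.

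Itgax, which encodes the integrin CD11c and marks microglia responding to plaques and age, lies at chr7:127728668-127749829. It was 16.3, 17.9, 16.7, 17.9 and 12.8 CPM in the knockdown libraries and 23.4, 20.2, 29.5, 29.2, 92.9 and 19.7 CPM in the controls. The knockdown libraries were close together and the controls were spread, with 0014 the highest. The log2 fold change of -1.14 (standard error 0.42) became -0.58 without control 0014.

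Rbm12b2, an RNA-binding protein gene, had the smallest p of the 22. It was 5.74, 3.99, 6.16, 6.46 and 4.38 CPM in the knockdowns and 8.53, 8.57, 9.58, 8.24, 6.69 and 10.1 CPM in the controls (log2 fold change -0.69, standard error 0.19). Ufsp1, a protease for the ubiquitin-like protein UFM1, was at 2.33 ± 0.652 CPM (SD, n = 5) against 3.92 ± 0.748 CPM (SD, n = 6). Il13ra1, a chain of the receptor for interleukin-13, was at 230 ± 15.2 CPM against 271 ± 16.2 CPM. Tial1, an RNA-binding protein of stress granules, was at 42.3 ± 2.97 CPM against 49.9 ± 2.96 CPM. Vps52, a subunit of the GARP tethering complex that returns endosomes to the Golgi, was at 59.9 ± 0.911 CPM against 65.7 ± 1.68 CPM (log2 fold change -0.13). In Fhod1, a formin that builds actin filaments, knockdown 0022 alone was far below, at 19.1 CPM, and the other knockdowns were at 31.1 to 32.7 CPM beside controls from 33.1 CPM upward.

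Among the 14 higher genes the largest difference was in the pseudogene Gm8116, named because it led by size. It was 2.36, 2.03, 1.47, 3.51 and 1.14 CPM in the knockdowns and 0.0452, 0.0614, 0, 0.768, 0.489 and 0.591 CPM in the controls. It was also the gene that moved most with the choroid signal, from 2.67 to 2.98 with a choroid plexus score in the fit and to 3.63 without the 4 libraries high in Ttr. Over the 22 genes the median shift was 0.00 with the score and 0.05 without those libraries. Some moved more than the median without them, Fhod1 from -0.27 to -0.11, Ndc1 from 0.26 to 0.12, Galnt11 from 0.41 to 0.25 and Gpr15lg from 0.56 to 0.38. Fbp1, fructose-1,6-bisphosphatase of gluconeogenesis, was under 1 CPM on average, with 2.83-fold between the nearest libraries. It was 0.476, 0.861, 0.970, 1.32 and 1.40 CPM in the knockdowns, 0.168 CPM in control 0009 and 0 in the other 5 controls, and DESeq2 called it (adjusted p = 0.00141).

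Ddit3, the stress transcription factor CHOP, was 7.69, 9.69, 4.83, 5.00 and 4.49 CPM in the knockdowns and 4.48, 2.21, 3.11, 2.86, 4.20 and 4.05 CPM in the controls. Its log2 fold change was 0.86 with a standard error of 0.27, though the nearest libraries were almost level. Syp, synaptophysin of synaptic vesicles, was 11.4, 12.6, 16.4, 14.9 and 18.1 CPM against 8.78, 7.86, 7.70, 6.30, 8.56 and 9.96 CPM (log2 fold change 0.84, standard error 0.26). Syp is a neuronal gene, and the 6 genes of the neuron marker list, which does not hold Syp, summed to between 3.61 and 8.92 CPM in the knockdowns and between 2.56 and 7.62 CPM in the controls. Of these 6 genes 4 were above 0, with a median of 0.35, and their mean log2 CPM was 0.54 higher in knockdowns. The median was 0.05 without knockdown 0022. Whether neuronal RNA had a part in Syp was not tested.

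Naalad2, a peptidase of the glutamate carboxypeptidase family, was 59.6, 53.0, 52.9, 47.6 and 43.9 CPM in the knockdowns and 25.1, 37.6, 40.9, 35.5, 37.5 and 16.01 CPM in the controls (log2 fold change 0.68, standard error 0.23). Tprn (taperin, an actin-associated protein of hair cells) was at 13.2 ± 0.790 CPM against 9.02 ± 1.42 CPM. Gpr15lg, the secreted ligand of the receptor GPR15, was at 17.1 ± 2.15 CPM against 11.6 ± 1.43 CPM. Galnt11, which starts O-linked glycans, was at 42.8 ± 5.06 CPM against 32.1 ± 3.93 CPM. Acat2, the cytosolic thiolase at the head of sterol synthesis, was at 10.1 ± 1.71 CPM against 7.67 ± 0.462 CPM. The 20 genes of the cholesterol synthesis list, which does not hold Acat2, were below 0 in 14, with a median of -0.06. This median was 0.01 without knockdown 0002, -0.33 without the 4 libraries high in Ttr and -0.39 without 0019 and 0022. In this list Sqle, Cyp51 and Fdps were lower at an unadjusted p under 0.05 in edgeR, where 2.86% of all genes were lower at that p. Kansl2, a subunit of the NSL histone acetyltransferase complex, was at 34.9 ± 2.77 CPM against 27.5 ± 1.74 CPM and lies on chromosome 15, 1.85 Mb from Slc11a2. Mcm3 of the replicative helicase, Ndc1 of the nuclear pore, Rbck1 of the linear ubiquitin ligase, Rcc2 of mitotic chromosomes and Sgce of the sarcoglycans had log2 fold changes between 0.13 and 0.27.

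**Figure D3:**
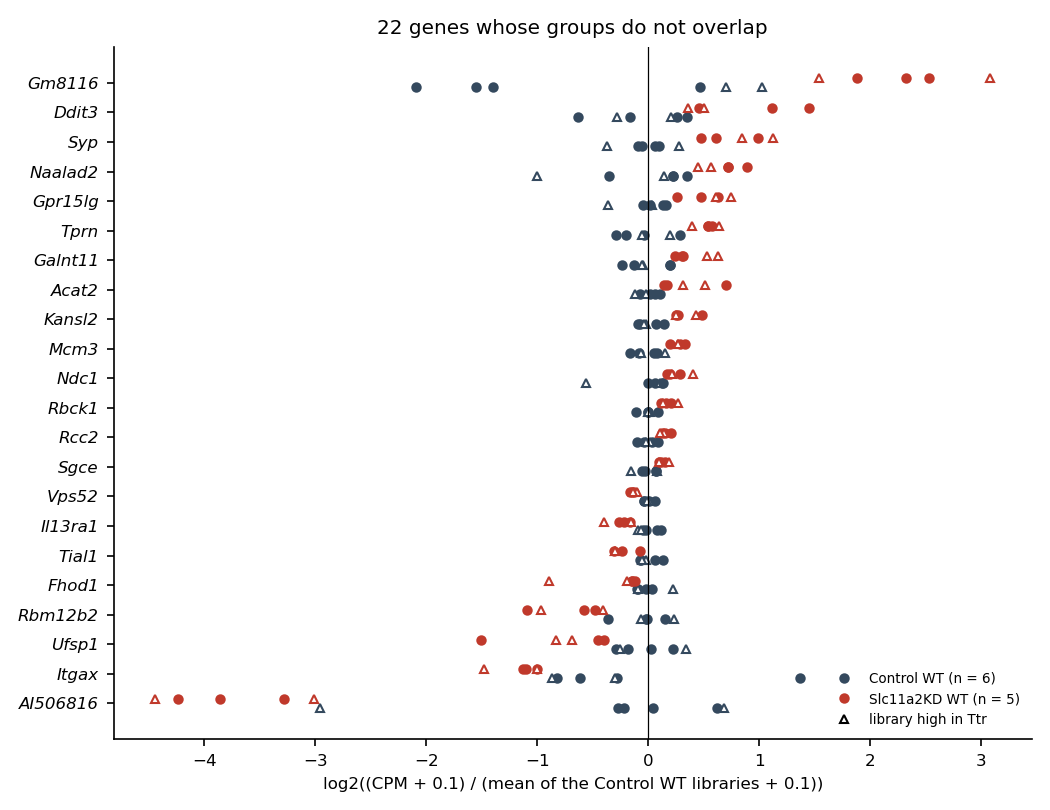
For the 22 genes averaging 1 CPM or more whose groups do not overlap, each library's log2 ratio of CPM + 0.1 to the Control WT mean + 0.1. Red marks are Slc11a2KD WT and dark marks Control WT, and open triangles are the 4 libraries high in Ttr (0012, 0015, 0019 and 0022). In most genes the nearest red and dark marks almost touch, and AI506816 and Gm8116 have the largest log2 fold changes, -3.83 and 2.67.

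The APP/PS1 libraries carry the same knockdown contrast in 5 against 6 mice. Their values were not compared in choosing these genes, but they shared the gene filter and the TMM scaling. With only the 11 WT libraries in edgeR, 19 of the 22 stayed apart. Of the 22 genes 12 had the same sign in APP/PS1 and 10 the opposite one. Over all genes averaging 1 CPM or more the sign was shared by 54.6%, so that the 22 were close to the background. Itgax had -0.84 in APP/PS1, Rbm12b2 -0.51 and Fhod1 -0.41, and AI506816 had -0.20, all of the same sign as in WT. Naalad2 had -0.53, Tprn -0.36 and Ddit3 -0.01, the opposite sign. A test of the difference between the contrasts (interaction, edgeR) passed for 0 genes, 0% of those tested, with a smallest adjusted p of 0.544 and 1703 genes at an unadjusted p under 0.05. DESeq2 called 25 genes for it, or 0.134%, and voom 1.

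Ccr6 and Cd5 were higher in most but not all knockdown libraries. Ccr6, the receptor for the chemokine CCL20, lies at chr17:8454869-8475973 and was 60.8, 64.1, 0.708, 43.8 and 34.0 CPM in knockdown libraries 0001, 0002, 0003, 0019 and 0022. The controls had 0.927, 0.154, 1.06, 1.63, 1.65 and 0 CPM. Library 0003 lay among the controls, and the other 4 knockdowns were above all of them, in Ttr-high and Ttr-low libraries alike. Cd5, a receptor of T cells and some B cells, was 2.24, 1.96, 0.525, 1.15 and 1.83 CPM against 0.701, 0.492, 0.560, 0.140, 0.6003 and 0 CPM, and again 0003 overlapped the controls. DESeq2 called both, with adjusted p-values of 0.0144 and 0.0188, and edgeR neither, with an adjusted p of 0.715.

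Lymphocyte markers were read beside Ccr6. The B cell list, with Ighm, Cd79b, Igkc and Ms4a1 among its 6 genes tested, summed to between 298 and 351 CPM in the knockdowns and between 258 and 372 CPM in the controls. By its mean log2 CPM, in contrast, knockdown 0003, the one low in Ccr6, was the highest of the 11 libraries (3.37), and 5 of the 6 genes were above 0, with a median of 0.37 that was 0.16 without 0003 and 0.77 without control 0015. The 8 T and NK cell genes tested summed to between 4.19 and 6.93 CPM and between 3.29 and 16.4 CPM. Of them 7 were below 0, with a median of -0.87 that was -0.33 without control 0009, the highest library, and 2 had an unadjusted p under 0.05, Trbc2 and Cd3g, both at 0 in every knockdown, where 2.86% of all genes were lower at that p. The part of either cell type in the Ccr6 reads was not tested. Ccr6 ran from 0.762 to 37.4 CPM among Control APP/PS1 libraries and from 0.257 to 18.7 CPM among Slc11a2KD APP/PS1 libraries, so that wide spread within a group was not limited to the knockdown in WT.

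Of the other genes DESeq2 called, several were read in few libraries. Ifi202b, an interferon-inducible DNA sensor, was at 6.60 CPM in control 0006 and 6.63 CPM in control 0012 and at 0 in the other 9 libraries. Slc47a1, an exporter of organic cations, was read in control 0012 alone, at 2.54 CPM. Igkv8-30, an immunoglobulin kappa segment, was read in knockdown 0001 at 6.45 CPM and in 0003 at 0.551 CPM. Plekha6 was between 0.204 and 0.675 CPM in 4 controls and at 0 in 2 controls and all 5 knockdowns. The remaining 3 were predicted genes, of which Gm42031 and Gm55118 were each read in 2 knockdown libraries and no control. Gm32633 was read in all 6 controls, at 0.186 to 1.26 CPM, and in knockdown 0002 alone of the 5, at 0.335 CPM. Genes at 0 throughout one group are given without a fold.

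No gene of iron handling passed a test, adjusted or not. Of 14 genes of iron uptake, all tested, 9 had a log2 fold change above 0 and 5 below, with a median of 0.05. Tfrc was 23.9, 22.7, 29.6, 23.8 and 18.997 CPM in the knockdowns and 23.4, 17.1, 20.4, 19.7, 23.2 and 18.0 CPM in the controls. The groups overlapped, and the log2 fold change of 0.23 (standard error 0.14) had an interval from 0.962 to 1.43 as a fold. Slc11a1 (NRAMP1), the related transporter of phagosomes, was at 342 ± 37.2 CPM against 353 ± 33.6 CPM. The zinc and iron importers Slc39a14 and Slc39a8 had log2 fold changes of 0.13 and -0.08. The iron regulatory protein genes Aco1 and Ireb2 had 0.08 and 0.01, Hfe, a partner of the transferrin receptor, had -0.13, and Lrp1, a receptor for heme bound to hemopexin, had 0.02 with a wide interval of -0.89 to 0.92. Steap3, an endosomal ferrireductase, was at 0.62 with an interval of -0.11 to 1.34.

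Of 13 genes of iron storage and export, 11 were tested, 6 above and 5 below 0, with a median of 0.01. The ferritin heavy chain Fth1 was 1601, 1616, 1731, 2301 and 3166 CPM in the knockdowns and 1988, 1495, 1473, 2309, 2431 and 2612 CPM in the controls. The highest library of each group, knockdown 0022 and control 0015, was high in Ttr. Its log2 fold change was 0.02, with an interval from 0.794 to 1.30 as a fold. Ftl1 had -0.13 and Slc40a1 -0.05, the latter with an interval from 0.833 to 1.12 as a fold. Hmox1, heme oxygenase, which frees iron from heme, was at 58.2 ± 4.17 CPM against 51.4 ± 6.08 CPM (log2 fold change 0.18, unadjusted p = 0.0730, edgeR). The iron chaperone Pcbp1 had 0.04, the ferritin receptor of autophagy Ncoa4 had -0.08, and the ferroxidase Cp had -0.26 with an interval of -0.99 to 0.48.

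The 22 genes of heme and iron-sulfur cluster synthesis lay between -0.14 and 0.32, and all 22 intervals were within 1 log2 unit of 0. Of 20 genes of ferroptosis, the cell death by lipid peroxidation that iron promotes, and of glutathione, 10 were above 0 and 10 below. Gpx4, which reduces lipid peroxides, was 208, 178, 155, 299 and 391 CPM in the knockdowns and 228, 198, 203, 233, 251 and 229 CPM in the controls. The knockdowns spread on both sides of the controls, with the Ttr-high 0019 and 0022 above them all, and the log2 fold change of 0.14 had a standard error of 0.21. It was -0.10 without 0022 and -0.30 without the 4 libraries high in Ttr. Gpx1 showed the same spread, from 501 CPM in 0003 to 1128 CPM in 0022 among knockdowns against 565 to 676 CPM in controls. Slc3a2 of the cystine transporter had -0.01 and Sat1, a polyamine enzyme, 0.07. Across the 4 iron lists, the intervals within 1 log2 unit were 10 of 14, 10 of 11, 22 of 22 and 15 of 20, against 49.7% of all genes and 77.9% of those at 1 CPM or more.

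**Figure D4:**
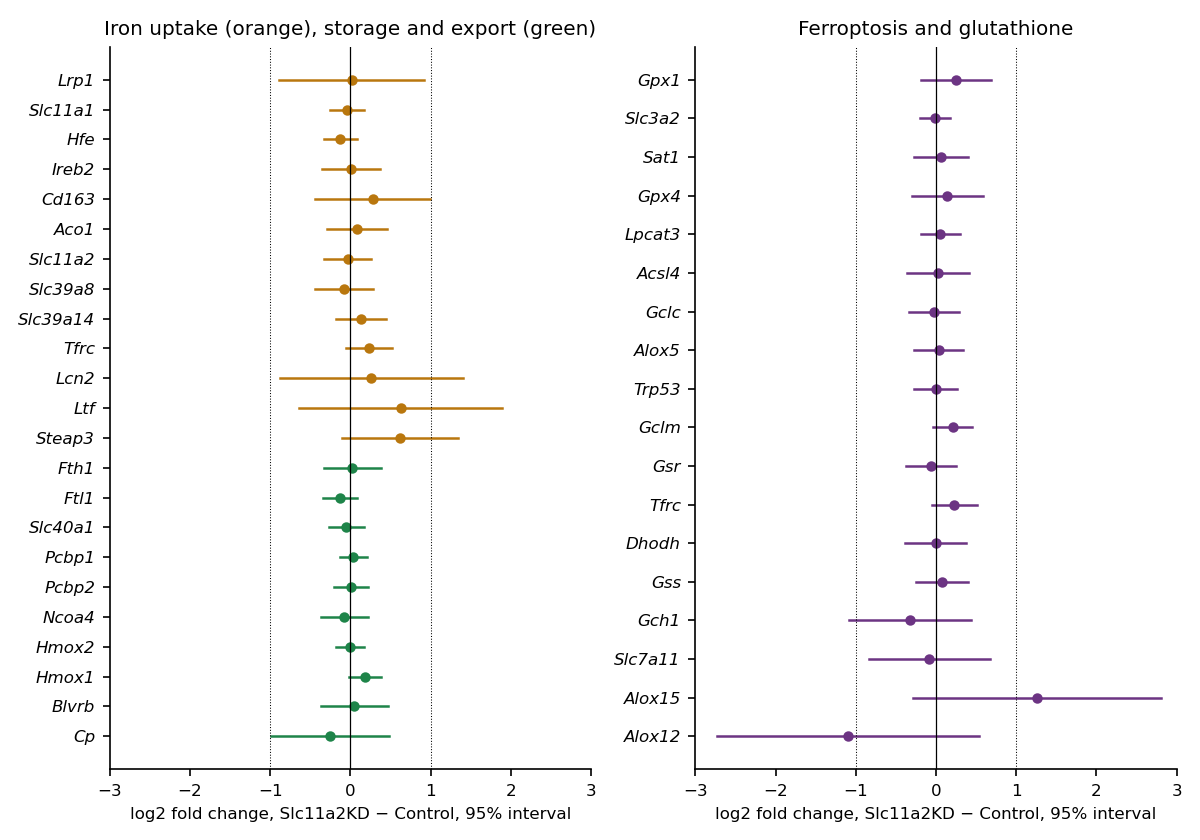
Log2 fold change, knockdown minus control, with its 95% interval in edgeR for the genes averaging 1 CPM or more of iron uptake (orange), iron storage and export (green) and ferroptosis and glutathione (purple). Dotted lines mark 1 log2 unit on either side of 0. Every interval includes 0, and those of Lcn2, Ltf, Steap3, Gch1, Alox12 and Alox15 reach past a dotted line.

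Microglial identity genes were level. Of the 19 homeostatic genes tested all 19 intervals lay within 1 log2 unit, the fold changes ran from -0.10 to 0.18 and the median was 0.01. Cst3 had 0.05, P2ry12 0.04 and Csf1r -0.06, none with an adjusted p under 1 in edgeR.

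Several lists lay mostly on one side of 0, and their libraries overlapped. Among genes averaging 1 CPM or more, 46.9% had a log2 fold change below 0 and 53.1% above, and 1.04% were lower with an unadjusted p under 0.05. Of 22 disease-associated microglia genes, a program seen around plaques, 20 were below 0, with a median of -0.26, and 3 had an unadjusted p under 0.05. The abundant members Ctsd, B2m, Ctsb and Trem2 had -0.10, -0.16, -0.13 and -0.11. The 3 were Itgax, the lysosomal protease Ctsl and the growth factor Csf1, named here for their p. Ctsl was 1076, 926, 648, 849 and 884 CPM in the knockdowns and 1341, 998, 1186, 1330, 1615 and 1202 CPM in the controls, and only knockdown 0001 reached into the control range. Its log2 fold change was -0.54 with a standard error of 0.14 (unadjusted p = 0.000641, adjusted p = 0.715, edgeR), and it was 0.00 in APP/PS1.

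Control 0014 stood apart in this list. It was the highest control in Itgax, in Csf1 at 89.8 CPM against 16.3 to 39.1 CPM in the other controls, in the receptor tyrosine kinase Axl at 206 CPM and in osteopontin (Spp1) at 415 CPM against 6.51 to 52.9 CPM. Without it the median of the list was -0.00025, and without the 4 libraries high in Ttr it was -0.63. The list's mean log2 CPM per library, relative to the control mean, was 1.23 in 0014, -0.42 to -0.04 in the other controls and -0.75 to 0.22 in the knockdowns.

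The interferon-stimulated genes, which type I interferon induces, were below 0 in 23 of 24, with a median of -0.68, the most negative of the 24 pathway lists, and 5 with an unadjusted p under 0.05. The 5 were Oasl2, Ifit3, Ifit2, Oas1a and Isg15, named for their p. Oasl2 was 4.38, 3.64, 4.75, 3.51 and 2.43 CPM in the knockdowns and 8.53, 4.42, 15.1, 11.1, 6.47 and 5.20 CPM in the controls. The highest knockdown, 0003, passed the lowest control, 0008, alone. Its log2 fold change was -1.18 with a standard error of 0.33 (unadjusted p = 0.00144, adjusted p = 0.715, edgeR). Bst2, Xaf1, Ifitm3 and Ifi27l2a, the abundant members, had -0.13, -0.45, -0.20 and -0.33. In the same order they had -0.54, -0.66, -0.66 and -1.40 without the 4 libraries high in Ttr. Without control 0006, Bst2 had 0.05 and Ifi27l2a -0.01. Control 0009 was the highest of all libraries for Ifit2, at 33.1 CPM, and for Isg15, at 27.3 CPM, and the list's median was -0.42 without it. The same library was the highest for the T and NK cell genes. The median of the interferon list was -0.89 without the 4 libraries high in Ttr and -0.93 without 0019 and 0022. The mean log2 CPM of the list, relative to the control mean, ran from -1.06 to -0.19 in knockdowns and from -0.65 to 0.77 in controls.

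Chemokine ligands lay below 0 in 13 of 16 genes tested, with a median of -0.51. It was -0.25 without control 0014, the highest library of this list, and -0.70 without the 4 libraries high in Ttr. Immediate early genes lay below 0 in 20 of 21 (median -0.25) and lysosomal genes in 20 of 23 (median -0.05). All 23 lysosomal intervals were within 1 log2 unit. The immediate early list, which responds to the handling of cells, was lowest in knockdown 0019 (-1.28) and control 0012 (-1.14), both high in Ttr, and highest in control 0015 (0.65), also high in Ttr. Its median turned to 0.08 without 0019 and 0022. Of 19 chemokine receptors 10 were below 0, and 3 had an unadjusted p under 0.05, all higher, Ccr1 and Ccr6 among them, where 3.06% of all genes were higher at that p. Ccr1 was at 28.0 ± 15.1 CPM against 13.3 ± 5.19 CPM, and its log2 fold change of 1.07 was 0.20 without the 4 libraries high in Ttr.

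Ribosomal protein genes were above 0 in 80 of 87 and genes of the respiratory chain and ATP synthase in 68 of 82, with medians of 0.14 and 0.08. Without knockdown 0022 alone both medians were -0.16. The mean log2 CPM of the ribosomal list, relative to the control mean, was 0.01, -0.23, -0.53, 0.30 and 0.88 in knockdowns 0001, 0002, 0003, 0019 and 0022 and between -0.13 and 0.27 in the controls. Without 0012, 0015, 0019 and 0022 the medians were -0.36 and -0.33. The Ttr-high controls 0012 and 0015 were at -0.13 and -0.02 on the ribosomal list, near the other controls. On the respiratory list 0012 was the highest control, at 0.18, and 0015 was at 0.06, where the other controls ran from -0.20 to 0.13. The 6 oligodendrocyte markers, Mbp first among them, were all above 0 (median 0.43, and 0.24 without 0022), summed to between 1007 and 3627 CPM in knockdowns and between 735 and 2801 CPM in controls, and none had an unadjusted p under 0.05. Border-associated macrophage markers were above 0 in 7 of 8, with sums of 278 to 538 CPM in knockdowns and 228 to 455 CPM in controls. Erythroid markers summed to 4.19 to 272 CPM and 0.181 to 177 CPM. The part of these cells in the differences between lists was not tested.

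**Figure D5:**
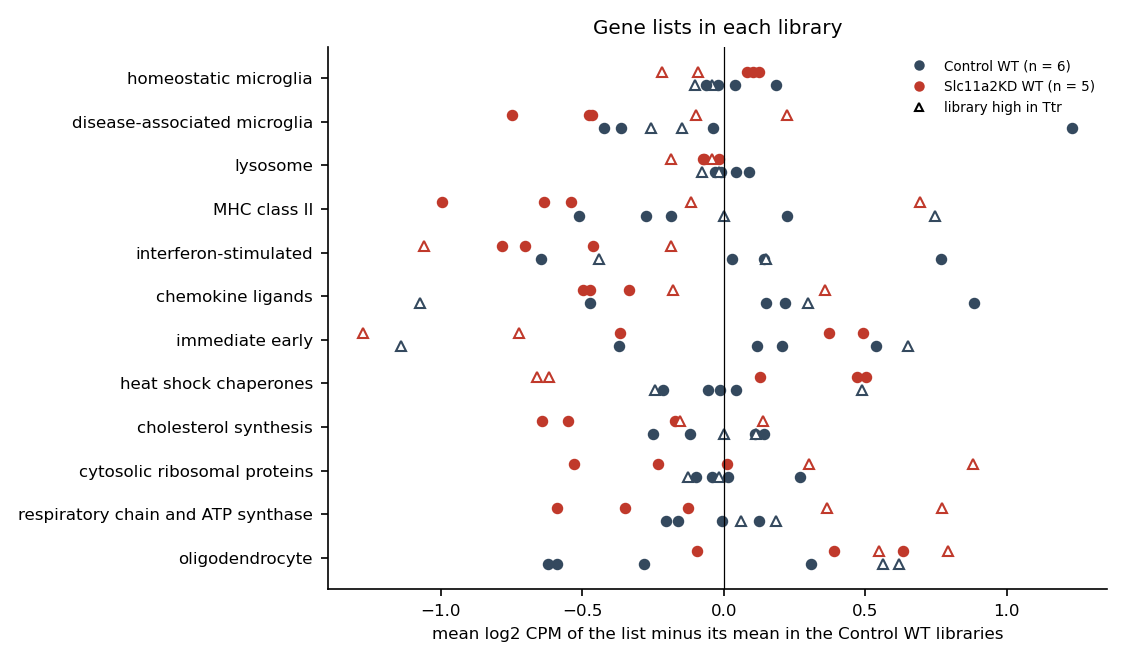
Mean log2 CPM of 12 gene lists in each library, minus the mean of the Control WT libraries. Red marks are Slc11a2KD WT and dark marks Control WT, and open triangles are the 4 libraries high in Ttr. The groups overlap in all 12 lists, control 0014 stands at 1.23 for disease-associated microglia, and knockdowns 0019 and 0022 stand to the right for ribosomal and respiratory genes.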

How the data were processed

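Hippocampal CD11b+ cells were enriched on magnetic beads after Percoll, and poly(A) RNA was sequenced. The authors trimmed reads with Trim Galore 0.6.7, aligned them with STAR to mm39 and counted them by gene, and removed low genes. The deposited counts, 1 table for 23 libraries, were used, and the authors' normalized table was not used.

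The members and gene lists were chosen with earlier results of these data known. Genes reaching 5 counts in 3 or more of 22 samples (Control APP/PS1 0010 left out, as in the study) were fitted in all 4 groups with edgeR 4.0.16 (quasi-likelihood, TMM, Benjamini-Hochberg, threshold 0.05) in R 4.3.3. Positions are on GRCm39. Intervals are 95% confidence intervals of the log2 fold change between the groups, with the spread estimated in the fit of the 22 samples. Named were Slc11a2, Ttr, Ccr6, Cd5, genes DESeq2 called, for genes without overlap at 1 CPM or more the 10 with the largest fold change and the 5 with the smallest p in each direction, and up to 4 abundant members of each list. Others were named after their values were seen. The fits were tested on simulated data. Alternatives (DESeq2 1.42.0, limma 3.58.1, sva 3.50.0 and others) are below. Some genes are not reported here.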

Additional observations from a re-analysis of the deposited data

Results flagged for a closer look

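Among 178 sets of values, a gene or marker sum in one group, 23 had a highest or lowest library far from the rest. Chance gives about 1 in 20 of such sets, a rate that does not apply where genes were named for their values in single libraries, as many here were. Of these, 6 came from control 0014: Itgax at 92.9 CPM, Axl at 206 CPM, Csf1 at 89.8 CPM, Ftl1 at 1340 CPM, Spp1 at 415 CPM and Trem2 at 1777 CPM. Control 0012 stood apart for Slc47a1 (2.54 CPM), Sqle (8.37 CPM), a low Gm32633 (0.186 CPM) and the ependymal markers (4.61 CPM summed). Control 0015 was low in Ndc1 (13.8 CPM) and high in Alox15 (2.33 CPM), and control 0009 was high in Fbp1 (0.168 CPM) and Isg15 (27.3 CPM). Knockdown 0019 was high in neutrophil markers (518 CPM summed), astrocyte markers (483 CPM) and Sqle (4.81 CPM). Knockdown 0022 was low in Fhod1 (19.1 CPM) and high in neuron markers (8.92 CPM), 0003 was high in erythroid markers (272 CPM) and Alox15 (5.61 CPM), 0001 in Igkv8-30 (6.45 CPM), and 0002 in Gm32633 (0.335 CPM).

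The knockdown difference in WT differed from that in APP/PS1 for Ccr6 (adjusted p = 0.0249), Ifi202b (adjusted p = 0.0408) and Gm55118 (adjusted p = 0.00174) by the interaction term of DESeq2, and for none of them in edgeR. In APP/PS1, Ccr6 averaged 4.15 CPM in Slc11a2KD and 14.4 CPM in Control libraries. Ifi202b ran from 0 to 8.08 CPM in Slc11a2KD and from 0 to 10.6 CPM in Control libraries there, and Gm55118 from 0 to 0.355 CPM and from 0 to 3.09 CPM.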

How the results depend on the processing

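The count of genes past the threshold was 0 in edgeR and 10 in DESeq2, 1 with limma voom and 3 with DESeq2 on only the 11 WT libraries (AI506816, Ncoa4-ps and Ccr6). It was 2 without the 4 libraries highest in Ttr (Best1 and 1110059E24Rik), 3 without 0019 and 0022, and between 0 and 1 with each library left out, the calls coming without 0002, 0012 and 0022. The interaction count was 25 in DESeq2, 1 with voom, 8 without 0019 and 0022 and between 0 and 1 with each library left out. Genes without overlap were 22 with a filter of a mean of 1 CPM, 1640 without the 4 libraries highest in Ttr, 906 without 0019 and 0022 and between 62 and 102 with each library left out, and fewer libraries overlap less often by construction. Of the 22 genes at 1 CPM or more, 19 stayed apart in edgeR on only the 11 WT libraries and 21 with DESeq2 size factors. Genes whose 95% interval lies within 1 log2 unit of 0 numbered 8020 to 9509. Genes whose 95% interval lies within log2(1.5) of 0 numbered 3723 without the 4 libraries highest in Ttr. The Slc11a2 total lay between -0.20 and 0.04.

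Of 1956 estimates for 79 named genes under the alternatives, 81 had the opposite sign. Library numbers 18 to 23, which no label calls a batch, held knockdowns only, so that this covariate left 0001, 0002 and 0003 to carry the WT contrast. Gpx4 turned to -0.33 with library numbers 18 to 23 as a covariate, and Gpx1 to -0.13 with it, -0.10 without the 4 libraries highest in Ttr and -0.11 without 0019 and 0022. Spp1 lay between -1.99 and 0.44 with each library left out, the last without control 0014. The cause was not tested. No paired analysis was possible because the groups share no replicate numbers. Genes under 1 CPM had the widest intervals.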
